A study of Homo sapiens with 4 samples.

Results

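The genes described here are the kinases that phosphorylate eIF2alpha, their substrate, the regulatory subunits that direct its dephosphorylation, and the transcripts read as outputs of endoplasmic reticulum (ER) stress. They were chosen by name for these roles, and are EIF2AK1, EIF2AK2, EIF2AK3, EIF2AK4, EIF2S1, PPP1R15A, PPP1R15B, HSPA5, XBP1 and DNAJB9, which make 10 of the 60612 gene rows of the count table. All 10 had enough reads to be tested. The libraries were made from poly(A) RNA of IMR-32, a human neuroblastoma cell line with amplified MYCN, and fall into 2 groups of 2. The shNeuroD1 cells stably carried a lentiviral hairpin RNA against NEUROD1, a neurogenic basic helix-loop-helix transcription factor, and the shControl cells a scrambled hairpin; the control is given as WT in the genotype field and as parental in the text of the study. Both groups received doxycycline at 1 µg/mL for 48 h to switch the hairpin on. The titles shNeuroD1-1 and shNeuroD1-2 are also the names of 2 hairpins of the study, while the study's own comparison names 1 hairpin with 2 replicates. Whether both libraries carry the same hairpin is therefore not certain, and effects of hairpin sequence and of losing NeuroD1 cannot be told apart. The labels do not say whether libraries of a group came from separate cultures, so p-values measure the spread between these libraries, which may be technical.

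In the integrated stress response, phosphorylation of eIF2alpha slows the start of translation on most mRNAs and favours a few, ATF4 among them. Each kinase senses a different stress: EIF2AK1 (HRI) haem shortage and mitochondrial or oxidative stress, EIF2AK2 (PKR) double-stranded RNA, EIF2AK3 (PERK) unfolded protein in the ER, and EIF2AK4 (GCN2) amino acid shortage. PERK is also an arm of the unfolded protein response, beside the nuclease IRE1, which cuts a short intron out of XBP1 mRNA, and the membrane-bound transcription factor ATF6. Phosphorylation of eIF2alpha and activation of PERK, IRE1 and ATF6 take place on protein, which mRNA counts do not show. The cut in XBP1 mRNA can be seen in RNA.

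The libraries held 14665210 to 16482463 counts in 26071 to 27121 genes, with 4.37% to 5.51% of counts from mitochondrial genes, higher in both shNeuroD1 libraries. NEUROD1 had 6174 and 6582 counts in the controls and 969 and 886 after knockdown. Its log2 fold change was -2.77 (SE 0.0504, adjusted p = 8.6e-29, edgeR's quasi-likelihood test with Benjamini-Hochberg adjustment over 17537 genes), a level of 14.6% of shControl. Of 8 adrenergic neuroblastoma markers, HAND2 ranged from 10812 to 12452 counts per library. DBH had 23 and 24 counts in the controls and 12 and 11 after knockdown, and TH 10 and 20 against 88 and 79. Of the 8 markers, 4 were lower, 3 higher and 1 was not called, beside 28.2% lower and 26.8% higher over all genes. Of 10 markers of fibroblasts and Schwann cells, PRRX1 was at 0 in all libraries and COL1A2 had 0, 3, 0 and 0 counts. The list summed to 234.0 and 230.2 CPM (counts scaled by library size and TMM factors) in the controls and 191.2 and 186.9 after knockdown. The part of other cells in the results below was not tested.

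NeuroD1 knockdown went with lower mRNA of both phosphatase subunits, of the kinase PERK, of eIF2alpha itself and, by the widest margin, of XBP1, and with higher mRNA of the kinase PKR and of the ER chaperone HSPA5. By edgeR at an adjusted p under 0.05, 5 of the 10 genes were lower, beside 28.2% of all genes tested, and 2 were higher, beside 26.8%. EIF2AK1, EIF2AK4 and DNAJB9 did not pass. XBP1 was the 1 gene that also fell by more than 1 on the log2 scale, beside 5.14% of all genes tested, and none of the 10 rose by more than 1, beside 8.79%. CPM, scaled by TMM factors, were lower in both shNeuroD1 libraries than in both shControl libraries for 5 of the 10 genes, as for 37.7% of all genes, and higher for the other 5, as for 38.4%. The median log2 fold change was -0.11 over the 10 genes and 0.01 over all genes. As so many genes were called, these counts do not set the 10 genes apart from the rest.

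**Figure D1:**
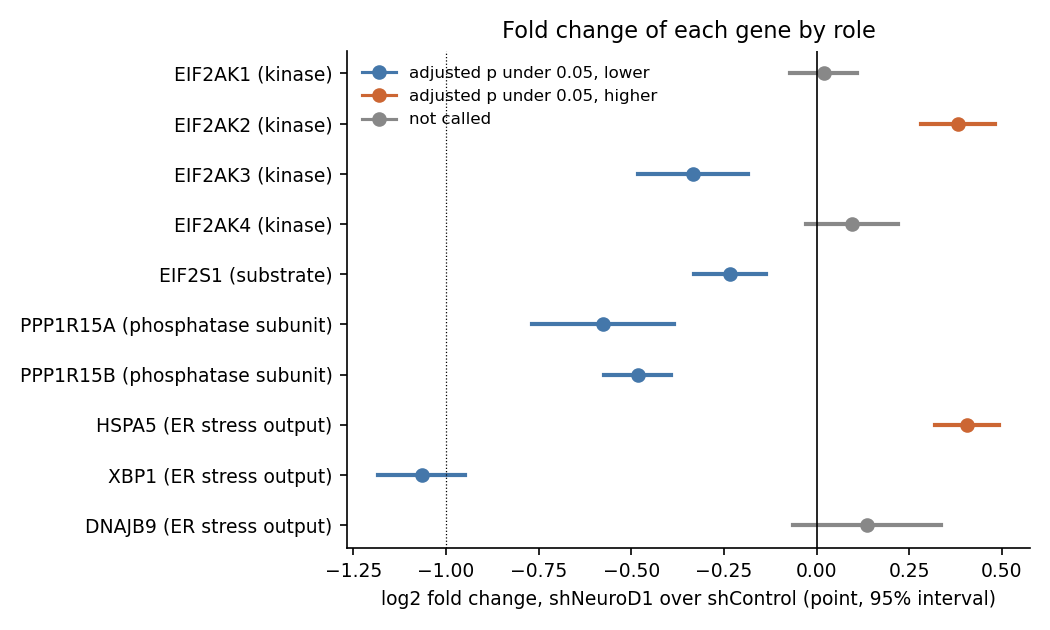
Log2 fold change of each gene in shNeuroD1 over shControl from edgeR (points) with its 95% interval (lines), ordered by role from the kinases at the top to the ER stress outputs at the bottom. Blue marks an adjusted p under 0.05 and lower, orange the same and higher, grey not called; the dotted line is at -1. XBP1 lies at -1.07, while EIF2AK2 and HSPA5 lie at 0.38 and 0.41.

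Of the 4 kinases, 1 rose, 1 fell and 2 were not called. EIF2AK2 (chr2:37099210-37157065, hg38) had 1621 and 1815 counts in the controls and 2184 and 2264 after knockdown. Both knockdown libraries were above both controls, and the log2 fold change was 0.38 (SE 0.0491, adjusted p = 6.3e-08), or 1.30-fold. EIF2AK3 (chr2:88556741-88627576) had 661 and 778 counts in the controls and 579 and 555 after knockdown. Both knockdown libraries were below both controls, with a log2 fold change of -0.33 (SE 0.0724, adjusted p = 0.000219). In bulk RNA, a change in the share of cells that express a gene and a change in RNA per cell cannot be told apart.

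EIF2AK1 (chr7:6022244-6059230) had 3024, 3258, 3194 and 3132 counts in shControl 1 and 2 and shNeuroD1 1 and 2. After scaling the knockdown libraries stood at 210.0 and 205.7 CPM against 205.2 in each control, a log2 fold change of 0.02 with a 95% interval of -0.07 to 0.11 (adjusted p = 0.745). EIF2AK4 (chr15:39934146-40035591) had 878, 1006, 1016 and 983 counts in the same order. Its groups did not overlap in CPM, but the log2 fold change of 0.09 (95% interval -0.03 to 0.22, adjusted p = 0.191) did not pass. Both intervals leave out changes as large as that of PKR or PERK.

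Among the counts of the 4 kinases, the share of PKR was 26.2% and 26.5% in the controls and 31.3% and 32.7% after knockdown. The share of PERK was 10.7% and 11.3% in shControl against 8.3% and 8.0%, and that of HRI, the most abundant kinase by counts, 48.9% and 47.5% against 45.8% and 45.2%. GCN2 held between 14.2% and 14.7% in every library. The groups did not overlap for the shares of PKR, PERK and HRI. The summed CPM of the 4 kinases were 419.6 and 431.8 in the controls against 458.4 and 455.4, and the CPM of HRI itself were not lower after knockdown.

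**Figure D2:**
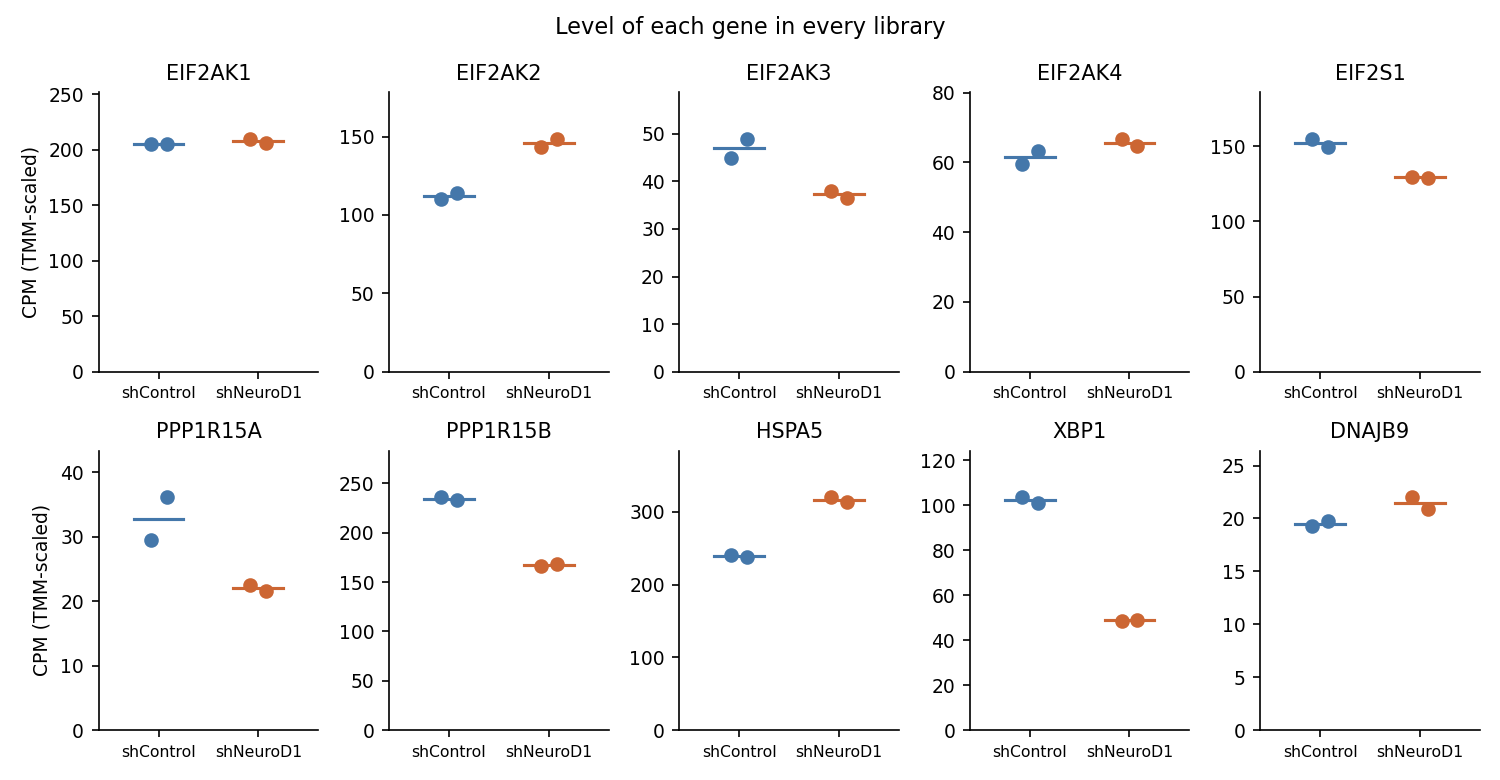
CPM scaled by TMM factors for each gene in each library (points; the short line is the mean of the 2 libraries of a group), with every axis starting at 0. XBP1 falls from 103.6 and 101.1 to 48.71 and 49.06, HSPA5 rises from 240.4 and 238.4 to 320.4 and 313.6, and the controls of PPP1R15A differ from each other more than those of the other genes.

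EIF2S1 (chr14:67359997-67386516) encodes eIF2alpha, the subunit that the kinases phosphorylate. It had 2286 and 2369 counts in the controls and 1970 and 1967 after knockdown. The knockdown libraries were lower than both controls, with a log2 fold change of -0.23 (SE 0.0476, adjusted p = 0.0001), or 85.0% of the control level.

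Both subunits that bring protein phosphatase 1 to eIF2alpha were lower. PPP1R15A (GADD34; chr19:48872392-48876057), the inducible subunit and itself a target of the ATF4 branch, had 434 and 574 counts in the controls and 342 and 329 after knockdown. The controls differed from each other, at 29.44 and 36.15 CPM, but both were above the knockdown libraries at 22.48 and 21.61. Its log2 fold change was -0.58 (SE 0.0942, adjusted p = 4.3e-06), and ranged from -0.72 to -0.43 when each library was left out in turn. PPP1R15B (CReP; chr1:204403387-204411791), the subunit present without stress, had 3481 and 3697 counts in the controls and 2537 and 2569 after knockdown. Its libraries agreed closely within each group, and the log2 fold change was -0.48 (SE 0.0442, adjusted p = 5e-11). There were 8.02 and 6.44 counts of PPP1R15B per count of PPP1R15A in the controls and 7.42 and 7.81 after knockdown, so the ratio of both subunits overlapped between groups.

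The ER stress outputs did not move together. HSPA5 (BiP, GRP78; chr9:125234853-125241330), the main Hsp70 chaperone of the ER, had 3544 and 3785 counts in the controls and 4874 and 4775 after knockdown. Both knockdown libraries were higher, the log2 fold change being 0.41 (SE 0.0423, adjusted p = 9.1e-10), or 1.32-fold. XBP1 (chr22:28794555-28800597), which gives rise to a transcription factor of ER folding and degradation genes once IRE1 has cut its mRNA, had 1527 and 1605 counts in the controls and 741 and 747 after knockdown. The knockdown libraries held 47.8% of the control level, and the log2 fold change was -1.07 (95% interval -1.18 to -0.95, adjusted p = 1.3e-16). DNAJB9 (ERdj4; chr7:108569568-108574850), a co-chaperone of BiP and a common readout of spliced XBP1, had 284, 314, 335 and 318 counts. It was the gene with the fewest counts of the 10, and its log2 fold change of 0.14 (95% interval -0.06 to 0.34, adjusted p = 0.249) did not pass. There were 2.32 and 2.36 counts of HSPA5 per count of XBP1 in the controls and 6.58 and 6.39 after knockdown.

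The exon of XBP1 that IRE1 cuts is shown because the transcript tables list it with and without the intron. It lies at chr22:28796047-28796192 on the minus strand (GRCh38, sequence from the GENCODE transcripts). Capitals mark the 26 bases at chr22:28796122-28796147 that the tables list as removed. A second position 2 bases away, at chr22:28796124-28796149, is listed only with the intron kept. Removing its 26 bases would leave the same exon, so the 2 positions cannot be told apart by sequence.

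XBP1 exon: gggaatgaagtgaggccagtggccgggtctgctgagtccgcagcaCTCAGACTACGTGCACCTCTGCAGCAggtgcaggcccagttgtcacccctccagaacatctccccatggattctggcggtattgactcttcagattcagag

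The form without the intron was listed at 3.72 and 5.93 FPKM in shControl, was not listed in shNeuroD1 1 and stood at 1.22 FPKM in shNeuroD1 2. The form that kept it was listed at 25.2 and 20.2 FPKM in shControl and at 19.3 and 11.4 in shNeuroD1. Both knockdown libraries were below both controls for each form. Of the summed FPKM, the cut form made 12.9% and 22.7% in shControl and 9.65% in shNeuroD1 2, and 0% in shNeuroD1 1 if a form that is not listed is taken as 0. The mean share was 17.8% ± 6.98 (SD, n = 2) in shControl and 4.82% ± 6.82 (SD, n = 2) in shNeuroD1, a difference of -13.0 percentage points, or -8.16 without the library that did not list the form. The difference between the shControl libraries, from 12.9% to 22.7%, was larger than the distance between the nearest libraries of the 2 groups. In 3521 introns listed with both forms in these tables, 14.9% likewise had a lower spliced share in both knockdown libraries than in both controls. The FPKM give no read depth, so no interval was set on these shares. The XBP1 counts of shNeuroD1 1 and 2 were nearly equal while their summed FPKM were 19.3 and 12.6, which shows the spread of the transcript tables.

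**Figure D3:**
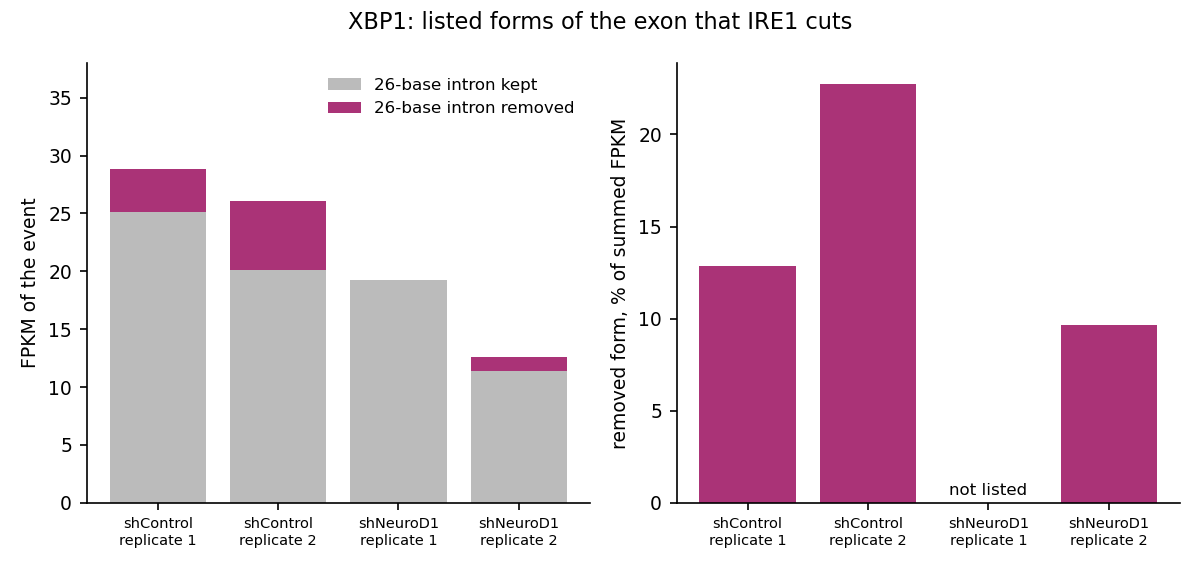
Left, FPKM of the XBP1 forms that keep (grey) or lack (purple) the 26-base intron, stacked for each of the 4 libraries; right, the form without it as a percentage of the summed FPKM. The cut form stands at 12.9% and 22.7% in shControl, is not listed in shNeuroD1 replicate 1 and stands at 9.65% in shNeuroD1 replicate 2.

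HSPA5 and XBP1, the output genes that rose and fell, both carry an exact ER stress response element just before their start, and these stretches are shown to compare them. The element, bound by ATF6 together with NF-Y, consists of CCAAT and CCACG separated by 9 bases, and is in capitals. The sequences are from RefSeq promoters (GRCh38.p14), both on the minus strand, at chr9:125241386-125241469 for HSPA5 and chr22:28800598-28800681 for XBP1.

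HSPA5: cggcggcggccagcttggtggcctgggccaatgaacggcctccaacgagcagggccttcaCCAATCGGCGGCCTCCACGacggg
XBP1: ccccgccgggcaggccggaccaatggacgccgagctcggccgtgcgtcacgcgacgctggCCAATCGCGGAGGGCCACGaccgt

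Counted from the RefSeq start, the element spans bases -66 to -48 of HSPA5 and -52 to -34 of XBP1. Searched on both strands in the 250 bases before each start, it was found in 26 of 35116 RefSeq promoters, or 0.074%. Promoters were found for 9 of the 10 genes, all but EIF2AK1. Of the 25 genes with the element, 16 were tested: 6 were lower, 5 higher and 5 not called, with a median log2 fold change of 0.03. The lower genes included FICD, which modifies BiP with AMP (-1.10), CANX (calnexin, -0.29) and CALR (calreticulin, -0.18), and the higher genes HSP90B1 (GRP94, 0.15); they were named by the motif and after their values were seen. Over all genes tested 28.2% were lower and 26.8% higher, so the counts do not set the genes with this element apart.

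Apart from CCACG, other motifs were sparse in the promoters of these genes. The C/EBP-ATF response element, TGATGNAAN, was present in PPP1R15B from base -227 to -219 and in 3.13% of all promoters. CAGCTG, an E-box form bound by NeuroD1, was present in HSPA5 from base -179 to -174 and in 14.0% of all promoters, while CAGATG, present in 12.2%, was in none of the 9. The core of the unfolded protein response element, TGACGTGG, was in none of the 9 and in 0.612% of all. CCACG, which also ends the ER stress response element, was in 33.5% of all promoters and in those of EIF2AK2, EIF2AK4, PPP1R15A, HSPA5, XBP1 and DNAJB9. All motifs were searched on both strands, and a match shows letters only, not binding.

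Per kb of exon, HSPA5 had the highest level of the 10 genes in both groups, at 61.3 CPM per kb (SD 0.377, n = 2) in shControl and 81.1 (SD 1.23, n = 2) in shNeuroD1. In shControl it was followed by PPP1R15B (44.9), EIF2AK1 (37.0), XBP1 (33.8) and EIF2S1 (26.9). PPP1R15A (10.6) and EIF2AK2 (10.4) came next and overlapped between libraries, before EIF2AK3 (8.63), DNAJB9 (6.88) and EIF2AK4 (5.14). All other neighbours in this order were separated in both libraries. In shNeuroD1, EIF2AK1 (37.5) stood above PPP1R15B (32.1), EIF2S1 (22.9) above XBP1 (16.1), and EIF2AK2 (13.6) above PPP1R15A (7.13), which overlapped with EIF2AK3 (6.86). DNAJB9 (7.56) also stood above both of these, with no overlap. These levels depend on the union of annotated exons, which is 2837 bases for DNAJB9 and 11957 for EIF2AK4.

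**Figure D4:**
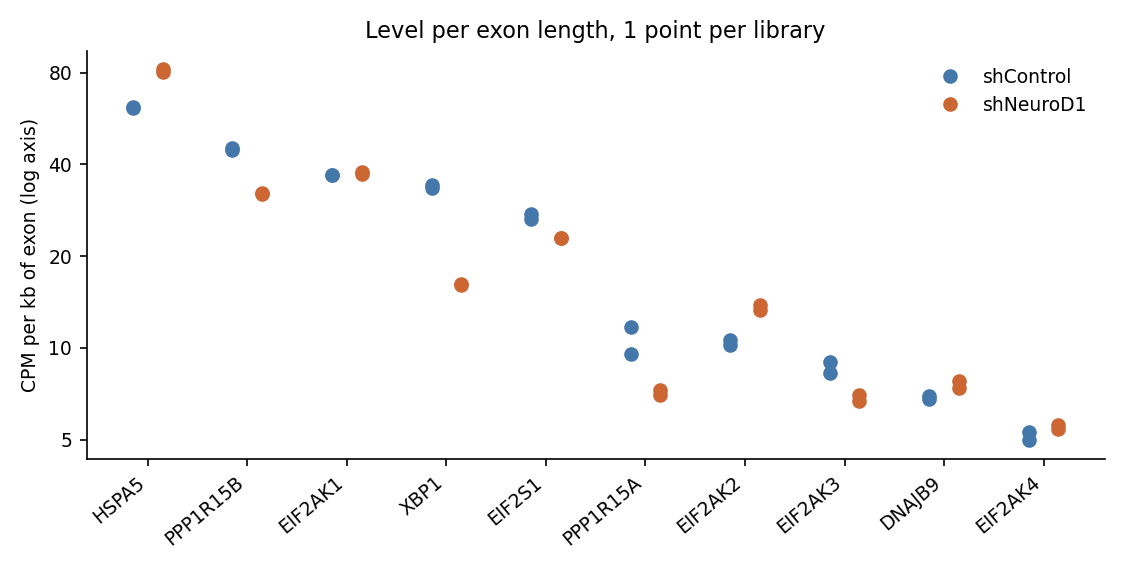
CPM per kb of annotated exon on a log axis, 1 point per library, with genes ordered by their shControl level. HSPA5 leads with 61.3 in shControl and 81.1 in shNeuroD1 (means), and XBP1 drops from 33.8 to 16.1.

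The regulators of the kinases were examined as a list of 7 genes. The shares over all genes tested were 28.2% lower and 26.8% higher. By edgeR none was lower (2 at an unadjusted p under 0.05, and none by DESeq2) and 4 were higher, GCN1, DELE1, IMPACT and OMA1, with a median log2 fold change of 0.11. OMA1, the mitochondrial protease that cleaves DELE1 to signal to HRI, had 192, 213, 275 and 271 counts (0.44, adjusted p = 0.00132), and IMPACT, an inhibitor of GCN2 activation, 671, 668, 766 and 857 (0.29, adjusted p = 0.000948). Both knockdown libraries were above both controls for each. The list count fell to 1 without shControl 1, to 2 without any one of the other libraries, and to 0 by DESeq2, which gave 3 at an unadjusted p under 0.05.

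Of 8 genes of the remaining eIF2 subunits, the exchange factor eIF2B and the assembly factor CDC123, 4 were lower, 1 higher and 3 not called (median -0.14). Among all genes tested, 28.2% were lower and 26.8% higher. The partners of eIF2alpha in the trimer diverged. EIF2S2 (eIF2beta) had 2762 and 2735 counts in the controls and 1969 and 1860 after knockdown (-0.51, adjusted p = 2e-10), whereas EIF2S3 (eIF2gamma) had 3768 and 4076 against 5780 and 5726 (0.56, adjusted p = 3.6e-13). The expressed copies EIF2S2P4 (646 counts over all libraries) and EIF2S3B (306) could share reads with them. EIF2B5, the catalytic subunit of eIF2B, changed by -0.27 (adjusted p = 0.000299) and was not called without shControl 2. Of the catalytic subunits of protein phosphatase 1, PPP1CA fell from 1340 and 1411 counts to 816 and 807 (-0.75, adjusted p = 8.6e-13), and PPP1CB (-0.07) and PPP1CC (0.07) were not called.

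Of the ER stress sensors and the enzymes that process them, 3 of the 7 genes tested were lower, 4 higher and none not called (median 0.14), beside 28.2% lower and 26.8% higher over all genes. On the IRE1 arm, ERN1, which encodes IRE1, had 484 and 466 counts in the controls and 358 and 347 after knockdown (-0.42, adjusted p = 0.000135). Its adaptor TRAF2 (-0.30, adjusted p = 0.017) and RTCB, the ligase that joins the cut XBP1 mRNA (-0.21, adjusted p = 0.00106), were also lower. On the ATF6 arm, ATF6 (0.23) and ATF6B (0.14) were higher, as were the Golgi proteases that release ATF6, MBTPS1 (0.34, adjusted p = 1.3e-05) and MBTPS2, with 694 and 674 counts in the controls and 1322 and 1348 after knockdown (0.97, adjusted p = 9.7e-15). RTCB, ATF6 and ATF6B were named, and the genes grouped by arm, after their values were seen. ATF6B (adjusted p = 0.0473) was not called with DESeq2 size factors, without a filter, by DESeq2, or without any one of the libraries. With library size alone 1 gene of the list, ERN1, was called lower. TRAF2 was also not called without a filter, by DESeq2, or without shControl 1, shControl 2 or shNeuroD1 1. The count of higher genes fell to 1 without shControl 1.

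**Figure D5:**
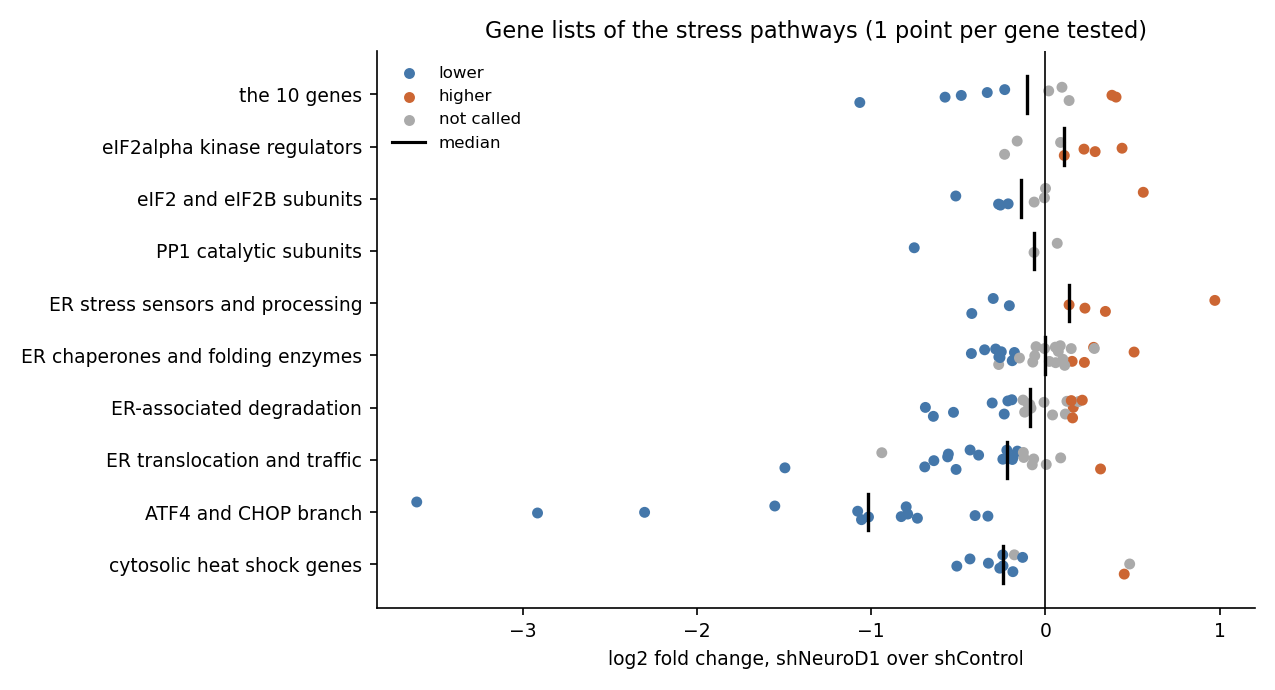
Log2 fold change of each gene tested in the 10 genes and in 9 pathway lists (1 point per gene; blue lower, orange higher, grey not called; black line, median of the list). The ATF4 and CHOP branch lies wholly below 0 with a median of -1.02, while the ER chaperones centre on -0.01 with genes on both sides.

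ER chaperones and folding enzymes mostly did not pass: 8 of 27 were lower, 4 higher and 15 not called, with a median of -0.01. The shares over all genes tested were 28.2% lower and 26.8% higher. DNAJC10, an ER disulphide reductase, fell from 2386 and 2608 counts to 1847 and 1850 (-0.43), and P4HB, protein disulphide isomerase, changed by -0.35. PDIA5 (0.51) and PDIA4 (0.28), of the same enzyme family, were higher, and PDIA5 was not called by DESeq2 or without either shControl library. In ER-associated degradation, 7 of 21 genes tested were lower, 4 higher and 10 not called (median -0.09), beside the same shares over all genes. HERPUD1, a scaffold of the degradation complex, fell from 690 and 757 counts to 413 and 479 (-0.69), and SELENOS by 0.64 on the log2 scale. The complex member SEL1L was higher by a small amount (0.16, adjusted p = 0.0068) and was not called by DESeq2. The higher count in this list was 0 without shNeuroD1 1 and 1 without shControl 1 or shNeuroD1 2, and that of chaperones 2 without shControl 2.

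Of 21 genes of translocation into the ER and traffic out of it, 13 were lower, 1 higher and 7 not called (median -0.22). Over all genes tested, 28.2% were lower and 26.8% higher. SSR3, a subunit of the translocon-associated protein complex, fell from 3046 and 3354 counts to 1164 and 1092 (-1.50, adjusted p = 6.2e-22), and SEC63, which recruits BiP to the translocon, from 4883 and 5090 to 2992 and 3145 (-0.69). The signal peptidase subunit SEC11C was the higher gene (0.32, adjusted p = 0.00109), and was not called without a filter, by DESeq2, without shControl 1, without shControl 2 or without shNeuroD1 2.

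In the ATF4 and CHOP branch, downstream of eIF2alpha phosphorylation, 13 of 13 genes tested were lower by edgeR (median -1.02). Of these, 7 fell by more than 1 on the log2 scale. Beside these counts stand 28.2% and 5.14% of all genes tested. The count of lower genes in this branch was 11 by DESeq2 and 11 with library size alone. It was 12 without a filter, and 12 when genes were instead filtered on mean CPM. The cystine transporter SLC7A11 fell from 1478 and 1817 counts to 124 and 144 (-3.61), and the glutathione-degrading enzyme CHAC1 from 411 and 448 to 53 and 60 (-2.92). ATF4 itself had 7576 and 7781 counts in the controls and 3621 and 3618 after knockdown (-1.08), whereas its listed starts summed to 80.75 and 46.24 FPKM in the controls against 84.86 and 74.44, groups that overlapped. DDIT3, which encodes CHOP, had 108 and 117 counts against 90 and 79 (-0.40, adjusted p = 0.0474). ATF4 and DDIT3 were named for their place in the pathway and after their values were seen. NUPR1 had 9, 8, 0 and 0 counts and was not tested. Among cytosolic heat shock genes, which belong to a separate stress response, 8 of 11 were lower, 1 higher and 2 not called (median -0.24). Among all genes tested, 28.2% were lower and 26.8% higher. DNAJB1 changed by -0.51, DNAJA1 by -0.33 and the small heat shock protein HSPB1 by 0.45.

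The transcript tables list starts, ends and splicing events in FPKM for 9 of the 10 genes, with none listed for PPP1R15B. Summed over starts, HSPA5 stood at 45.5 and 44.7 FPKM in the controls and 63.1 and 62.8 after knockdown, and XBP1 at 28.9 and 26.1 against 19.3 and 12.6. EIF2S1 stood at 21.95 and 21.11 against 23.0 and 25.3, the opposite direction to its counts. In shNeuroD1 2 this sum included an internal start at chr14:67375832-67376304 of 7.85 FPKM that no other library listed, and its first start alone was at 21.4, 20.9, 22.8 and 17.3 FPKM. For EIF2AK1 a start inside the gene at chr7:6046777-6046902, named after its values were seen, was at 0.134 and 0.531 FPKM in the controls and 1.54 and 3.29 after knockdown, beside 23.3 to 36.9 FPKM for the first start.

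Some of the genes share exon bases with genes on the opposite strand, and the use of strand in counting is not given in the sources used here, so reads from these bases could not be assigned with certainty. The shared bases were 9.6% of the exon bases of EIF2AK1 (with AIMP2), 4.8% of EIF2S1 (with ATP6V1D), 6.5% and 3.5% of DNAJB9 (with THAP5 and PNPLA8), and 0.3% and 3.7% of EIF2AK2 (with GPATCH11 and a pseudogene). EIF2AK3 shared 14.4% with an antisense gene of 20 counts and 0.7% with another of 249, beside 2573 of its own over all libraries. The annotated copies HSPA5P1 and EIF2AK1P1 had 0 counts and XBP1P1 22 over all libraries. The calls also depended on the scaling: with library size alone, which moved the median of all genes to 0.12 on the log2 scale, EIF2AK1 (0.13), EIF2AK4 (0.21) and DNAJB9 (0.25) also passed as higher and XBP1 fell by 0.95. Relative to the median of all genes, these 3 genes stood almost where they did under TMM scaling, and the split of all calls went from 4939 lower and 4698 higher to 3639 lower and 6114 higher.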

How the data were processed

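RNAseq of 4 IMR-32 libraries (2 shControl, 2 shNeuroD1) was used. Counts per gene were deposited by the authors as raw values in a table of the series; FPKM of assembled transcript starts, ends and splicing events were deposited as 1 table per library. Per the submitters' processing notes, reads were handled with cutadapt 1.9.1, HISAT2 2.0.1, HTSeq 0.6.1 and DESeq2 on hg38. The annotation release, the strand setting and the tool behind the FPKM are not given in the sources used here. An event is listed only where it was assembled, and the depth behind FPKM is unknown. The authors' own fold changes and p-values in the table were not used, and 0 columns of unknown sample were found.

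Counts were fitted with edgeR 4.0.16 in R 4.3.3 (TMM scaling, filterByExpr with a minimum count of 10, quasi-likelihood test, two-sided, Benjamini-Hochberg over 17537 genes, no covariate), and the test was checked on simulated data. Called means an adjusted p under 0.05. Totals were 14665210 to 16482463 counts. Replicates differed by more than sampling noise (chi-square per gene 2.48 in shControl and 1.54 in shNeuroD1). Alternatives were DESeq2 1.42.0, other scalings and filters, a block on replicate number, each library left out, and limma 3.58.1 on log2(FPKM + 1) and log2(FPKM + 0.1) above a mean of 1 FPKM.

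Gene symbols came from a separate list of names, or from GENCODE 29 where that list had none. In all, 60588 of 60612 identifiers were matched to a symbol. Coordinates came from GENCODE 29, which held 58394 of the identifiers, and promoters from RefSeq GRCh38.p14. The XBP1 intron was found by its length and position in the event tables, taking introns with a summed FPKM of at least 1 per library as background. The 10 genes and all lists were chosen with earlier results of these data known, so counts over a list describe and test nothing. Named were the 10 genes, NEUROD1 and, in each pathway list, the 2 largest falls and 2 largest rises among genes called with a mean of at least 10 CPM; others are marked as named after their values were seen, and some genes that the rule names are not reported here. A change of all RNA per cell was not measured.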

Additional observations from a re-analysis of the deposited data

How the results depend on the processing

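The 7 calls among the 10 genes (5 lower, 2 higher) kept direction and call with DESeq2 size factors, library size alone, no filter, a mean of at least 1 CPM, the DESeq2 test, the replicate block and each library left out, where the adjusted p of EIF2AK3 was 0.0487 without shControl 2. Library size alone added EIF2AK1 (0.131), EIF2AK4 (0.207) and DNAJB9 (0.248), for 5 higher, and left 0 genes lower beyond log2 1. By limma on FPKM 0 of the 9 genes listed passed in either setting, with 2 lower and 2 higher at an unadjusted p under 0.05; values with a pseudocount of 1 and of 0.1 were 0.499 and 0.566 for EIF2AK2, -0.258 and -0.291 for EIF2AK3, -0.453 and -0.503 for PPP1R15A, 0.474 and 0.482 for HSPA5, and -0.777 and -0.812 for XBP1, and 0.158 and 0.164, of opposite sign, for EIF2S1. TWIST1 (0.0283 and 0.0706) also changed sign. FPKM called 245 and 120 genes lower and 244 and 119 higher, of which 202 and 120 lower and 192 and 119 higher were beyond log2 1. DESeq2 called 2757 genes higher and 998 higher beyond log2 1. Without each library in turn, 3464 to 4213 genes were lower and 2828 to 3860 higher; shControl 1 (2855) and shControl 2 (2828) moved the latter most. When 1 library is left out, its group is assumed to vary like the other. The cause of these differences was not tested.

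With library size alone, lower counts became 2 (eIF2 and eIF2B), 1 (sensors), 4 (chaperones), 4 (degradation) and 5 (heat shock), and higher counts 1 (phosphatase catalytic subunits), 10 (chaperones), 7 (degradation) and 3 (translocation). Without a filter, higher counts became 2 (degradation) and 0 (translocation), and with DESeq2 0 (kinase regulators), 2 (chaperones), 1 (degradation) and 0 (translocation). With each library left out, kinase regulators had 1 to 2 higher, eIF2 and eIF2B 2 to 3 lower, phosphatase catalytic subunits 0 to 1 higher, sensors 1 to 3, chaperones 2 to 4, degradation 0 to 3 and translocation 0 to 1 higher. The difference in XBP1 spliced share ranged from -17.9 to -8.05 percentage points with each library left out, alternatives chosen after seeing the data. Deviations of libraries of the same number were nearly uncorrelated over all genes tested (0.0158). With 2 libraries per group, this cannot show whether those libraries were prepared together, which the labels do not say. The replicate block gave 5000 genes lower and 4748 higher and changed no call of the 10 genes. Depth limits DNAJB9 most, with 284 to 335 counts per library.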
